A study of Mus musculus with 56 samples.

Results

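NF-kB is a family of dimeric transcription factors, and its subunits and inhibitors were examined here through the accessibility of the chromatin around their genes. The set holds 10 genes chosen by name: the subunits Rela, Rel, Relb, Nfkb1 and Nfkb2, the classical inhibitors Nfkbia and Nfkbie, the nuclear IkB proteins Nfkbiz and Bcl3, and the feedback inhibitor Tnfaip3. Its regions were the peaks centred within 25 kb of the transcription start site (TSS) of a member, 222 of 297361 peaks in all, of which 105 lay within 10 kb. The sum of the peaks within 10 kb of a TSS is called the locus of the gene. All 10 genes had such peaks, and no peak fell to more than 1 member.

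Bulk ATAC-seq, which uses a transposase to tag accessible DNA, had been run on 56 libraries of 1000 cells from 28 clones of mouse granulocyte-monocyte progenitors (GMPs). Every clone, control lines included, came from 1 bone marrow cell of a Tet2 fl/fl mouse, carried a retroviral Hoxb8 fused to an estrogen receptor domain (Hoxb8-ER) and was kept as an undifferentiated line in 0.5 µM beta-estradiol. In each clone a Tet2 knockout (KO) line, given Cre, was paired with a control line, given GFP, both from an integrase-defective lentiviral vector at a multiplicity of infection of 200. There were 24 clones in stem cell factor (SCF, about 100 ng/ml), numbered 1 to 5, 7 to 18 and 23 to 29, and 4 clones in GM-CSF (10 ng/ml), numbered 19 to 22; mice were aged 8 to 12 weeks throughout the experiments. Conditional immortalisation limits these cells as a model, since Hoxb8 activity keeps them arrested. By the authors' account the GM-CSF clones are held at a more mature stage than the SCF clones. Cytokine and clone cannot be told apart because no clone was grown in both cytokines.

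In resting cells, NF-kB dimers are held in the cytoplasm by inhibitors of the IkB family, and inflammatory signals free them by having these inhibitors degraded. Rela, Rel and Relb carry transactivation domains, while the products of Nfkb1 and Nfkb2 are processed to DNA-binding partners, Relb with the Nfkb2 product forming the dimer of the non-canonical pathway. Several inhibitor genes are themselves NF-kB targets, which makes a feedback loop, and in myeloid cells the pathway drives inflammatory gene expression. Accessibility reports open DNA, not transcription or protein.

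Library totals ran from 39379 to 1079233 counts over all peaks, with group medians of 482619 in SCF control, 351522 in SCF KO, 329124 in GM-CSF control and 239380 in GM-CSF KO lines. In 6 clones (3, 4, 13 and 27 with SCF, 19 and 20 with GM-CSF) at least 1 library was under 50% of the median total. Of 564 pairs of libraries within groups, 3 did not differ beyond sampling noise in a chi-square test (KO lines 13 and 16, p = 0.514, and the control and KO lines of clones 19 and 20, p = 0.228 and p = 0.711). They bear separate clone labels and were counted as separate, and values without clone 13, with controls 19 and 20 summed, or without the 6 shallow clones are given where they alter a call. The GMP markers had open loci in every group: the mean over 14 marker loci was 60.1 to 71.6 CPM (counts per 1000000 of the scaled library total) in SCF control lines and 49.1 to 60.6 CPM in GM-CSF control lines. At the targeted gene, the Tet2 locus held 30.9 ± 10.8 CPM (SD, n = 24) in SCF control and 32.9 ± 9.89 CPM in SCF KO lines (log2 difference 0.031 ± 0.13 SE, adjusted p = 0.927), and as the sources used here do not place the floxed segment, these peaks do not check its excision.

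Of the 222 peaks, 15 lay within 1 kb of a member's TSS and are called promoter peaks, 23 lay at another annotated start (19 at a neighbouring gene, 4 at another transcript of the member) and 184 were distal. By annotation 88 were intergenic, 86 intronic, 30 in coding exons and 18 in other parts of exons. The 10-base kB consensus, searched on both strands, was found in 7 of the 15 promoter peaks (46.7%). It was in 5.76% of the 34401 peaks of the series within 1 kb of any annotated transcript start. That set is wider, here and for the motifs below, as by its rule the 23 peaks at another start would count too. Among those 23, peaks of Nfkb2 (1310 bp downstream) and Nfkbie (5778 bp upstream and 8190 bp downstream) held a match. Of all 222 peaks 27 held it (12.2%), against 5.77% of all peaks. The GC box (GGGCGG) was in 10 of the 15 promoter peaks (66.7%) against 37.9%, the PU.1 motif (GAGGAAGT) in 2 (13.3%) against 4.63%, the AP-1 motif (TGANTCA, with C or G at N) in 2 (13.3%) against 5.57%, and the C/EBP motif (TTGCNNAA) in 0 against 10.1%. These are matches of letters on either strand, some may overlap, and they were not tested against peaks of like base composition.

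The sequences below are the promoter peaks that hold a kB match at Nfkb1, Nfkbia, Nfkbie, Nfkbiz, Tnfaip3 and Relb, the neighbouring Relb peak in which Tet2 KO lines differed, and the Bcl3 peak in which GM-CSF clones differed. They are shown because the Relb and Bcl3 differences described later fall within them, and because they let the start sites be compared letter by letter. Each is read 5′ to 3′ along the strand of its gene from the mm10 genome (RefSeq GRCm38.p6), as 300 bases, the last base of each peak left out, with distances from the TSS to the peak centre. Capitals mark kB matches on either strand.
Relb, peak 117 bp upstream (chr7:19629406-19629705, minus strand): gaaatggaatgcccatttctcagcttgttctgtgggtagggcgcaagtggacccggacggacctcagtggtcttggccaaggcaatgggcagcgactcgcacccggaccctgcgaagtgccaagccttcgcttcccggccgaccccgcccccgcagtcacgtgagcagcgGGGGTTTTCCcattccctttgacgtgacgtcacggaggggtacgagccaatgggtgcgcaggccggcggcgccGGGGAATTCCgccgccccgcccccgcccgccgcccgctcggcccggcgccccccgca
Relb, intronic peak 727 bp downstream (chr7:19628562-19628861, minus strand): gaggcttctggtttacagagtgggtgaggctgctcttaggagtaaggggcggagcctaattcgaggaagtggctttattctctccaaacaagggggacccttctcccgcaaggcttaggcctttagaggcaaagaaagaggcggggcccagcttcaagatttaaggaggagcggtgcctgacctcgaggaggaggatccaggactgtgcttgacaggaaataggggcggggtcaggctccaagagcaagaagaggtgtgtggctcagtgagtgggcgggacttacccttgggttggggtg
Nfkb1, peak 70 bp downstream (chr3:135691328-135691627, minus strand): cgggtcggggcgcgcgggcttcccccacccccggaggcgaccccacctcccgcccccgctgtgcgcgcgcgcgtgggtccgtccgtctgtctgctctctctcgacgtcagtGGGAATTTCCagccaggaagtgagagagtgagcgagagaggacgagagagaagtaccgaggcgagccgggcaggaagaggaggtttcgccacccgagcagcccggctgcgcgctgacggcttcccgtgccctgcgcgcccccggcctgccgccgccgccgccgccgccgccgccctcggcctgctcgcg
Nfkbia, peak 34 bp downstream (chr12:55492464-55492763, minus strand): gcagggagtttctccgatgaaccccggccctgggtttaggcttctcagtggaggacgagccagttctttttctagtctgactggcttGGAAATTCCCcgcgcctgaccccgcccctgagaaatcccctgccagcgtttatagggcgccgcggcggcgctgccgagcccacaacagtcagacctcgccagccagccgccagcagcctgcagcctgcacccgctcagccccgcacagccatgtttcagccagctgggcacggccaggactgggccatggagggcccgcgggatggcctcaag
Nfkbie, peak 51 bp upstream (chr17:45555502-45555801, plus strand): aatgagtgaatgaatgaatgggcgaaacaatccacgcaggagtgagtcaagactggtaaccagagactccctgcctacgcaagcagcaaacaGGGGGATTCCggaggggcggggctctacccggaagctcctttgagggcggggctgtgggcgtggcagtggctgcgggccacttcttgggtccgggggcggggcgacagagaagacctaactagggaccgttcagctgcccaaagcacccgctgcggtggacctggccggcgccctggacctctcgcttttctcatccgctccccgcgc
Nfkbiz, peak 57 bp downstream (chr16:55838693-55838992, minus strand): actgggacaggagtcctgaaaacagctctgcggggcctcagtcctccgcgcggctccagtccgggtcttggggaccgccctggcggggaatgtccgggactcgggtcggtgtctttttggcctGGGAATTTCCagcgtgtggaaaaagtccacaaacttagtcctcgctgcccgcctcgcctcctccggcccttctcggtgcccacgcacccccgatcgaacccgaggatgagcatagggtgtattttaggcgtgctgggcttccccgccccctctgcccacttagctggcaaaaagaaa
Tnfaip3, peak 230 bp downstream (chr10:19015278-19015577, minus strand): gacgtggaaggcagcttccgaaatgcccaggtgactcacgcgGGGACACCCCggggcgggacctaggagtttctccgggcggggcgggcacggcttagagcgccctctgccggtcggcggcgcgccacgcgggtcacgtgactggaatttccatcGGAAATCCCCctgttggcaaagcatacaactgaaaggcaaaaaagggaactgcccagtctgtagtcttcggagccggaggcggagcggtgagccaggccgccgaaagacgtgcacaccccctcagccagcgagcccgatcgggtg
Bcl3, intronic peak 5169 bp downstream (chr7:19817452-19817751, minus strand): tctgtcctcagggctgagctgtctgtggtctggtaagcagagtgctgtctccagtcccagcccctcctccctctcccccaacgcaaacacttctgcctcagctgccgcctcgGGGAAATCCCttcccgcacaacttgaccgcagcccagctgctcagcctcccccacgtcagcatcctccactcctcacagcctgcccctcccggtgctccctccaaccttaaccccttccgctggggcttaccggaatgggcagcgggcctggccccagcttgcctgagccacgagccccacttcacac

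Both Relb matches in the upstream peak, GGGGTTTTCC and GGGGAATTCC, lie upstream of the TSS, centred at 92 and 19 bp from it. The intronic Relb peak, the most counted of all 15 promoter peaks, holds no kB match but a PU.1 match and a GC box. Nfkb1 and Nfkbiz carry the same 10 bases, GGGAATTTCC, 36 and 35 bp from their start sites, and Nfkbia has GGAAATTCCC at 24 bp. The match in the Bcl3 intron, GGGAAATCCC, is centred 5136 bp from the TSS. It meets the kB consensus on both strands, though its letters differ between them. The Bcl3 promoter also has a match (GGGAAGTCCC at 22 bp), but this peak gathered 131 counts in all libraries together and its sequence is left out. No kB match was found in the promoter peaks of Rela, Rel or Nfkb2, which says only that these letters are absent from those windows. Beyond that window, Nfkb2 has GGGACTTTCC 1389 bp from its TSS. That match lies in an intronic peak centred 1310 bp downstream (656 counts), at the start of a non-coding transcript.

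The members differed in where their accessible DNA lay. Promoter peaks held 74.4% of the counts within 25 kb at Rel, 69.7% at Tnfaip3 and 67.9% at Relb, so these genes were read mainly at the start site. The share was 47.4% at Nfkb1, 37.5% at Nfkbia, 33.6% at Nfkb2 and 29.6% at Rela. It was low at Nfkbie (13.3%), Nfkbiz (11.6%) and Bcl3 (4.48%), where the strongest peaks lay elsewhere. At Nfkbiz the strongest peak, with 1159 counts and 56.1% of all counts within 25 kb, was centred 16719 bp into the gene and 42 bp from the start of a shorter annotated transcript. At Nfkbie it was centred 17637 bp downstream, 69 bp from the start of the neighbour Hsp90ab1, and all 14 peaks of the Nfkbie locus also belonged to the loci of neighbours (Hsp90ab1, Slc35b2 and Tmem151b), so that locus cannot be told apart from theirs. Bcl3 had its counts spread over 4 peaks without a leading start site: 773 counts at 8156 bp upstream, 665 in the intron at 5169 bp, 607 at 6381 bp and 406 at 1565 bp upstream.

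**Figure D1:**
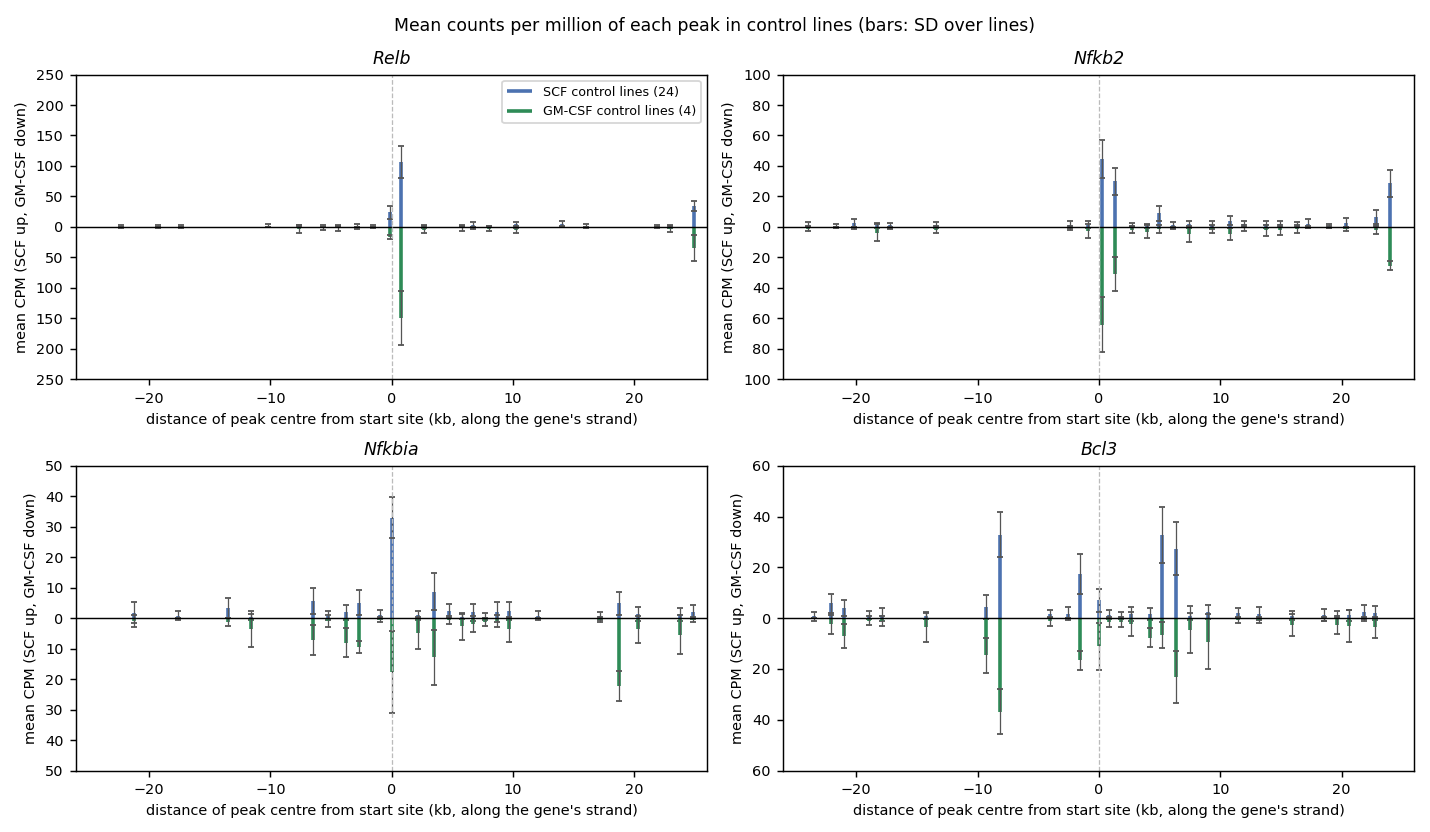
Mean CPM of each peak (vertical lines; bars, SD over lines) against the distance of its centre from the start site in kb along the gene's strand, with SCF control lines (n = 24) drawn upward and GM-CSF control lines (n = 4) downward. The profiles show Relb with its counts at the start site, and at Bcl3 the intronic peak 5169 bp downstream with 32.7 CPM in SCF and 6.51 CPM in GM-CSF lines.

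Among subunits in SCF control lines, the Relb locus had the most counts, with a lowest, median and highest library of 103, 136 and 238 CPM. The Nfkb2 locus followed (54.5, 92.3 and 139 CPM), then Rel (58.7, 73.0 and 111 CPM) and Rela (29.4, 45.3 and 95.3 CPM). Nfkb1 had the lowest values of the subunits, 15.1, 29.4 and 50.4 CPM. These sums run over different numbers of peaks (11 at Relb, 10 at Nfkb2, 6 at Rel, 9 at Rela and 11 at Nfkb1), so they order counts and not openness per base. Among inhibitors, Bcl3 ran from 96.8 to 190 CPM (median 133), Nfkbie from 81.6 to 138 CPM (median 109), Tnfaip3 from 55.3 to 110 CPM (median 76.7) and Nfkbia from 48.6 to 82.4 CPM (median 63.7). The Nfkbiz locus was the weakest, at 0 to 38.1 CPM (median 18.2) with 3 libraries at 0, and its window leaves out the inner start. The ranges of neighbours in both orders overlapped, except those of Nfkbia and Nfkbiz.

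**Figure D2:**
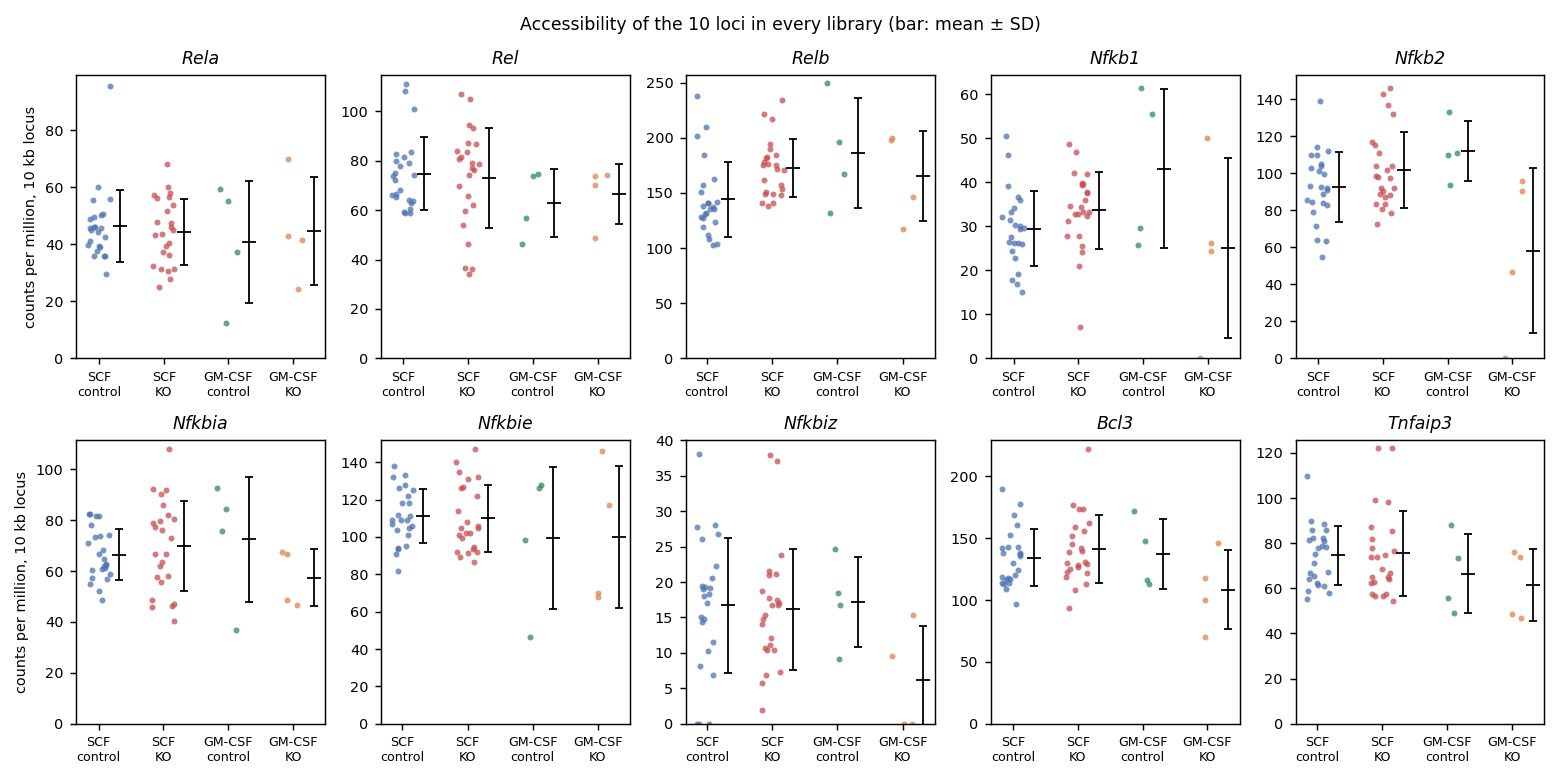
CPM of the 10 kb locus of each member in every library, by cytokine and genotype (points, libraries; bar, mean ± SD; n = 24, 24, 4 and 4). At Relb the SCF KO points sit between 138 and 234 CPM and the SCF control points between 103 and 238 CPM.

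Differences between the SCF clones themselves, tested over both lines of each clone, were not resolved at any member. Of 10427 loci, 179 (1.72%) differed between clones at an adjusted p under 0.05 (edgeR's quasi-likelihood test with Benjamini-Hochberg adjustment, used for all fits), and these included 0 of the 9 members tested. The lowest value was that of Bcl3 (p = 0.0418, adjusted p = 0.378), followed by Relb (p = 0.123, adjusted p = 0.551) and Tnfaip3 (p = 0.137, adjusted p = 0.564). Nfkbiz had too few counts to be tested.

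The first comparison asked what loss of Tet2, an enzyme that oxidises 5-methylcytosine in DNA, did to these loci in the 24 SCF clone pairs. The Relb locus was more accessible in KO lines, and it was the member that passed the test. In control lines the lowest, median and highest libraries had 103, 136 and 238 CPM, and in KO lines 138, 173 and 234 CPM. The ranges overlapped, but the KO line was the higher of its pair in 21 of 24 clones: in 16 of the 17 clones numbered 1 to 18 and in 5 of the 7 numbered 23 to 29. The means were 144 ± 34.0 CPM in control and 173 ± 25.9 CPM in KO lines (SD, n = 24), a fitted log2 difference of 0.32 ± 0.062 (SE, adjusted p = 1.29e-04). Of 10427 loci tested, 485 (4.65%) were called higher in KO lines and 158 lower, and the median of all was -0.013.

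Leaving out the shallow clones gave 0.36 (adjusted p = 2.12e-05), and within clones 1 to 18 the value was 0.37 (adjusted p = 3.81e-04). Within the 7 clones numbered 23 to 29 it was 0.21 ± 0.12 and did not pass the test (adjusted p = 0.599). The pair that went furthest the other way was clone 27, where KO minus control was -60.5 CPM and a library of the clone was shallow. The share of counts in peaks within 1 kb of any annotated transcript start averaged 46.4% in SCF control and 48.1% in SCF KO lines. With that share as a covariate beside the clone block, the Relb value was 0.35 (adjusted p = 4.66e-05). Chromosome 7, which holds Relb and Bcl3, took 0.995 of its usual share of counts in SCF control and 1.01 in SCF KO lines on average. The 2 runs of clone numbers differed at chromosome X. It took 1.472% to 1.667% of counts in libraries of clones 1 to 18. In clones 19 to 29, GM-CSF clones included, it took 1.094% to 1.401%. The part of this difference in the Relb values was not tested.

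**Figure D3:**
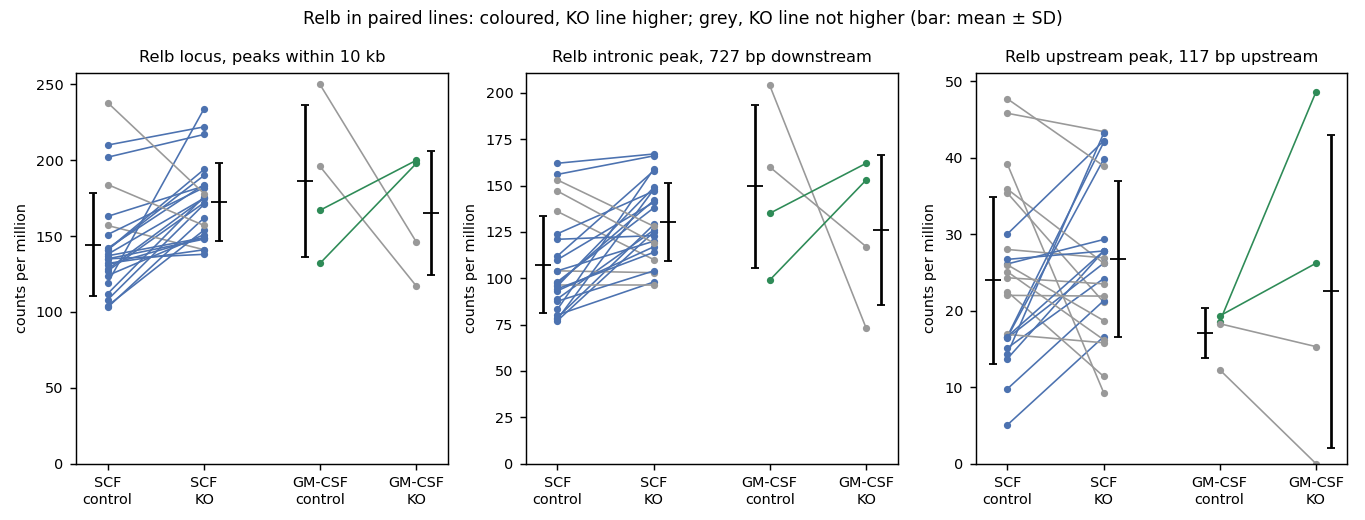
CPM at Relb in paired control and KO lines, for the locus, the intronic peak 727 bp downstream and the peak 117 bp upstream; each line joins the libraries of 1 clone, coloured where the KO line was higher (bar, mean ± SD; SCF n = 24 pairs, GM-CSF n = 4 pairs). At the locus 21 of 24 SCF pairs rose, while among the GM-CSF clones 2 of 4 pairs did.

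At Relb the sum of promoter peaks was called and the sum of peaks from 1 to 25 kb was not. The sum of its promoter peaks had 131 ± 32.3 CPM in control and 157 ± 23.2 CPM in KO lines, with 19 of 24 pairs rising, and differed by 0.28 ± 0.065 (adjusted p = 0.00188), as did 323 of 6906 promoter sums in the higher direction (4.68%). The sum of peaks from 1 to 25 kb had 67.0 ± 14.2 CPM in control and 66.3 ± 17.8 CPM in KO lines (-0.012 ± 0.087, adjusted p = 0.974), and 281 of 9861 such distal sums were called in either direction (2.85%), with 0 of 8 members among them. At an unadjusted p under 0.05 there was 1 member, Bcl3 (0.13 ± 0.061, p = 0.0307, adjusted p = 0.258). The most counted peak of the Relb distal sum (785 counts) lies 25 bp from the start of the neighbour Clasrp. The KO difference at that peak was -0.13 ± 0.12 (adjusted p = 0.589), so the distal sum is partly a reading of a neighbour's promoter. Whether promoter and distal peaks of Relb differ in their response was not tested.

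Of single peaks, the Relb intronic peak 727 bp downstream (chr7:19628561-19628861) was called higher in KO lines. It ran from 77.1 to 162 CPM in control lines (median 97.7) and from 96.4 to 167 CPM in KO lines (median 127). The groups overlapped widely, and the KO line was higher in 20 of 24 pairs. The means were 107 ± 26.1 and 130 ± 21.2 CPM, and the log2 difference 0.27 ± 0.071 (adjusted p = 0.00571, against a limit of 0.01 for peaks), where 175 of 7871 peaks were called higher (2.22%). The call was lost with DESeq2 (0.26, adjusted p = 0.0122), without the clone block (0.27, adjusted p = 0.0193) and within clones 1 to 18 (0.32, adjusted p = 0.0128) or 23 to 29 (0.16, adjusted p = 0.828). The upstream Relb peak with both kB matches had 24.0 ± 10.9 CPM in control and 26.7 ± 10.2 CPM in KO lines, a similar fitted value with more error (0.29 ± 0.14, adjusted p = 0.231), and was higher in 12 of 24 pairs. In all, 19 of the 222 member peaks passed the count filter of this comparison.

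The other subunits did not pass. Nfkb1 had 29.5 ± 8.56 CPM in control and 33.7 ± 8.78 CPM in KO lines and was higher in 18 of 24 pairs, with a log2 difference of 0.23 ± 0.13 (adjusted p = 0.290). Nfkb2, the partner of Relb, had 92.7 ± 18.9 and 102 ± 20.6 CPM (0.10 ± 0.072, adjusted p = 0.470), while its promoter sum had 46.0 ± 13.1 and 56.2 ± 15.1 CPM, the KO line leading in 17 of 24 pairs (0.20 ± 0.10, adjusted p = 0.220). Rel (74.7 ± 14.6 and 73.0 ± 20.3 CPM) and Rela (46.5 ± 12.7 and 44.4 ± 11.6 CPM) had log2 differences of 0.034 ± 0.082 and -0.043 ± 0.11. The 95% interval of the difference was -0.13 to 0.19 at Rel and -0.25 to 0.17 at Rela.

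None of the inhibitors was called in this comparison. Nfkbia had 66.5 ± 10.1 CPM in control and 69.7 ± 17.7 CPM in KO lines (0.075 ± 0.083), Tnfaip3, whose protein edits ubiquitin chains, 74.6 ± 13.0 and 75.4 ± 18.9 CPM (0.029 ± 0.080), and Bcl3, which joins p50 and p52 dimers in the nucleus, 134 ± 23.1 and 141 ± 27.6 CPM (0.033 ± 0.065). Nfkbie, with its shared peaks, had 111 ± 14.7 and 110 ± 17.8 CPM (0.0080 ± 0.067). Their 95% intervals lay between -0.13 and 0.24. Nfkbiz had 16.7 ± 9.48 and 16.1 ± 8.53 CPM and was not tested at its locus. Its distal sum, which holds the inner start, differed by 0.043 ± 0.077 (adjusted p = 0.859). Directions at Bcl3, Tnfaip3, Rel and Nfkbie turned with upper-quartile scaling, so none is given for them.

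**Figure D4:**
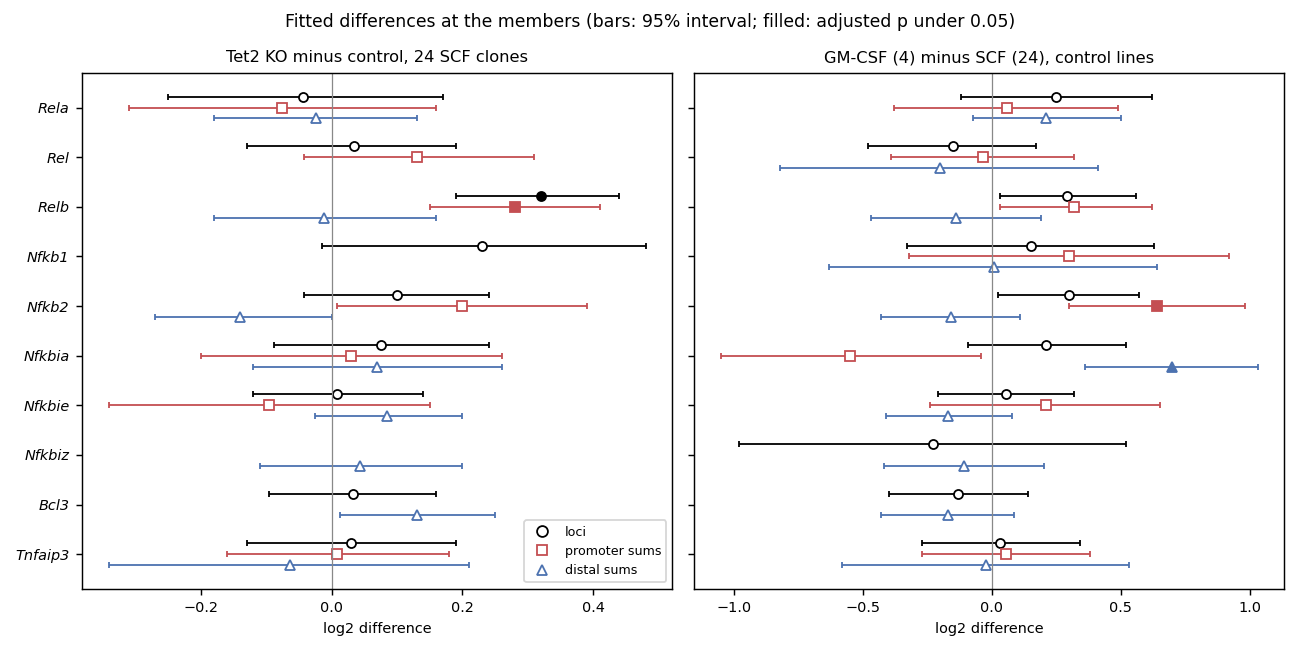
Fitted log2 differences at the members for the Tet2 KO effect in SCF clones and for GM-CSF against SCF control lines, at loci, promoter sums and distal sums (points; bars, 95% interval; filled, adjusted p under 0.05). The filled points are Relb at its locus (0.32) and promoter (0.28) for the KO effect, and the Nfkb2 promoter sum (0.64) and Nfkbia distal sum (0.70) for the cytokines.

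Of the other pathway genes, 46 were listed and 41 measured in the KO comparison, with 3 called higher and 0 lower, against 4.65% of all loci called higher, and a median of 0.016 against -0.013 over all loci. The 3 genes were Malt1 (0.35 ± 0.069, adjusted p = 1.27e-04), Bcl10 (0.32 ± 0.063, adjusted p = 1.35e-04) and Ripk2 (0.31 ± 0.068, adjusted p = 6.12e-04). Bcl10 and Malt1 form the adaptor complex that links antigen and lectin receptors to IkB kinase, and Ripk2 is the kinase below the NOD receptors. Their loci rose from 106 ± 27.8 to 131 ± 26.9 CPM, from 136 ± 29.3 to 169 ± 33.1 CPM and from 107 ± 21.0 to 134 ± 29.3 CPM. Of the 9 peaks of Bcl10, 3 are shared with a neighbour. Of 30 NF-kB target genes, 19 were measured and 0 were called, with a median of -0.011 against the same -0.013. Among GMP markers 1 of 12 was called, Cebpa (128 ± 26.5 and 147 ± 25.1 CPM, 0.19 ± 0.063, adjusted p = 0.0413), and its part in these values was not tested.

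The share of distal counts in peaks holding a kB consensus gave a reading of such sites across the genome. It was 5.12 ± 0.225% in SCF control and 5.20 ± 0.220% in SCF KO lines, higher in KO lines in 14 of 24 pairs. The mean difference within pairs was 0.0762 percentage points and was not resolved (two-sided sign-flip permutation test over the 24 pairs, 100000 draws, p = 0.147). GM-CSF control lines had 5.19 ± 0.203% (n = 4), 0.0635 percentage points above SCF control lines (two-sided exact permutation test, 20475 permutations, p = 0.604).

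The second comparison set the 4 GM-CSF against the 24 SCF control lines. It addressed how the loci differ between clones held by these cytokines. GM-CSF is meant to favour the monocyte-macrophage fate and to hold cells at a more mature stage. No member passed the test at the level of the whole locus, where 1612 of 12956 loci were called (12.4%) and 0 of 10 members. At an unadjusted p under 0.05 there were 2, Relb (144 ± 34.0 and 186 ± 50.0 CPM, 0.29 ± 0.13, adjusted p = 0.141) and Nfkb2 (92.7 ± 18.9 and 112 ± 16.0 CPM, 0.30 ± 0.14, adjusted p = 0.155), and DESeq2 called 0 as well. Calls were made in parts of loci, at Nfkb2, Nfkbia and Bcl3. In either direction they were 1 of 8 member promoter sums (901 of all 8954) and 1 of 10 distal sums (1749 of 12871). Of member peaks 2 of 22 were called (1933 of 13171). These shares are near or below those over all features, so the calls describe single regions and not the set.

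These 4 lines are of uneven depth, with totals from 88234 to 766838 counts, and clones 21 and 22 hold most of the counts. The fits weight lines by their counts, and a fitted value can go against the plain means, as at Rela (46.5 ± 12.7 and 40.9 ± 21.4 CPM, but 0.25 ± 0.19, adjusted p = 0.450). Markers of several cell types moved with the cytokine. Of 6 neutrophil marker loci tested, 4 were called higher in GM-CSF lines (S100a9, S100a8, Ngp and Ltf) and the mean over the 8 listed loci was 40.5 to 55.0 CPM against 23.4 to 42.9 CPM, while 6 of 14 GMP marker loci were lower, Cd34 (-2.39 ± 0.29) and Kit (-1.76 ± 0.24) among them, and 3 higher. Of 7 macrophage and monocyte marker loci, 0 were higher and 1, Ccr2, was lower. Called loci of the other marker lists were all lower in GM-CSF lines: 2 of 4 for mast cells and basophils (Cpa3, -4.47 ± 0.55, and Mcpt8, -0.90 ± 0.30), 2 of 5 for B cells (Ebf1, -1.51 ± 0.24, and Pax5, -0.83 ± 0.27), 2 of 4 for dendritic cells (Flt3, -0.81 ± 0.20, and Tcf4, -0.69 ± 0.23) and 1 of 4 for erythroid cells and megakaryocytes (Itga2b, -1.38 ± 0.22), while 0 of 3 T and NK cell loci were called. The part of these cell types or states in the values below was not tested.

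The Bcl3 intronic peak (chr7:19817451-19817751) had less signal in GM-CSF lines. Over the 24 SCF control lines its lowest, median and highest values were 14.1, 34.1 and 50.6 CPM. Over GM-CSF control lines 19, 20, 21 and 22 it had 0, 12.3, 7.33 and 6.43 CPM, from 0, 1, 4 and 5 counts. Every SCF control line was above every GM-CSF control line, but the share of all peaks that part the groups so was not counted. With 0 to 5 counts in GM-CSF lines, the peak passed the count filter through its SCF lines. The direction of a call was thus favoured in advance. The means were 32.7 ± 10.9 CPM (n = 24) and 6.51 ± 5.04 CPM (n = 4), and the log2 difference -2.11 ± 0.38 (adjusted p = 3.57e-06), where 1301 of 13171 peaks were called lower (9.88%).

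The peak lies in an intron of Bcl3, within the antisense gene Gm16174. It was called in all 8 alternatives run for it and without each GM-CSF clone in turn, with values from -2.24 to -1.63. In KO lines, a separate set of libraries from the same clones, it had 33.2 ± 9.34 CPM in SCF and 10.6 ± 10.2 CPM in GM-CSF (-1.63 ± 0.41, adjusted p = 0.00173). The KO libraries of GM-CSF clones 19, 20, 21 and 22 held 1, 0, 5 and 3 counts there. In all these runs the peak passed the count filter through its SCF lines, so they add no separate support for the direction. The KO effect at this peak within SCF clones was -0.031 ± 0.12 (adjusted p = 0.934). The other strong Bcl3 peaks did not pass the test: the peak 8156 bp upstream had 32.9 ± 8.82 CPM in SCF and 36.9 ± 8.88 CPM in GM-CSF control lines (0.29 ± 0.23, adjusted p = 0.403), the peak at 6381 bp 27.4 ± 10.3 and 23.3 ± 10.2 CPM (-0.24 ± 0.28, adjusted p = 0.598), and the peak 1565 bp upstream 17.4 ± 7.88 and 16.5 ± 3.74 CPM (0.15 ± 0.34, adjusted p = 0.811). The Bcl3 locus as a whole had 134 ± 23.1 and 137 ± 28.1 CPM.

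The Nfkb2 promoter had more signal in GM-CSF control lines. Its promoter sum ran from 14.7 to 81.8 CPM in SCF control lines (median 46.0) and was 55.6, 73.7, 53.2 and 84.9 CPM in GM-CSF clones 19 to 22. The groups overlapped, with 18 of 24 SCF control lines under all 4 GM-CSF lines. The means were 46.0 ± 13.1 and 66.8 ± 15.1 CPM and the log2 difference 0.64 ± 0.17 (adjusted p = 0.00607), where 377 of 8954 promoter sums were called higher (4.21%). Its peak 221 bp downstream, with 44.5 ± 12.3 and 64.1 ± 18.3 CPM, was called likewise (0.71 ± 0.18, adjusted p = 0.00124), where 632 of 13171 peaks were higher (4.80%). Both calls rested on clone 22. Without it the promoter sum gave 0.34 (adjusted p = 0.540) and the peak 0.35 (adjusted p = 0.443), and with DESeq2 the adjusted p was 0.0516 and 0.0258. Between KO lines the promoter sums were 56.2 ± 15.1 CPM in SCF and 34.1 ± 28.1 CPM in GM-CSF, where clone 19 was at 0 (0.037, adjusted p = 0.942).

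At Nfkbia, which encodes IkB-alpha, promoter and surrounding peaks had values on opposite sides. The distal sum ran from 27.5 to 75.5 CPM in SCF control lines (median 50.5) and was 111, 85.9, 106 and 66.9 CPM in GM-CSF clones 19 to 22. Of the SCF control lines, 21 of 24 lay under all 4 GM-CSF lines. The means were 50.9 ± 13.5 and 92.6 ± 20.3 CPM and the log2 difference 0.70 ± 0.17 (adjusted p = 0.00164), where 843 of 12871 distal sums were called higher (6.55%). It was 0.50 and not called without clone 21 (adjusted p = 0.159), and 0.39 between KO lines (52.5 ± 16.6 and 67.0 ± 29.8 CPM, adjusted p = 0.269). The promoter sum had 33.0 ± 6.71 CPM in SCF and 17.7 ± 13.4 CPM in GM-CSF control lines and did not pass (-0.55 ± 0.26, adjusted p = 0.172). Chromosome 12, which holds Nfkbia, took 1.03 of its usual share of counts in GM-CSF control lines and 0.998 in SCF control lines on average.

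Within that distal sum 1 peak is described that was chosen after its values were seen. An intergenic peak 18706 bp downstream of Nfkbia (chr12:55473791-55474091) had 0 to 12.7 CPM in SCF control lines (median 4.74, with 5 lines at 0). It had 27.8, 24.6, 20.2 and 16.7 CPM in GM-CSF clones 19 to 22, from 3, 2, 11 and 13 counts. Each of the 4 lay above all 24 SCF control lines. How many of all peaks part the groups in this way was not counted, so the separation is not shown to be unusual. With means of 4.88 ± 3.72 and 22.3 ± 4.86 CPM it failed the count filter, and since it was picked for these values no test is given. KO lines had 4.12 ± 3.70 CPM in SCF and 20.4 ± 21.3 CPM in GM-CSF, 1 of these 4 being at 0.

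The remaining members gave no call between the cytokines. The Relb intronic peak was near the limit for peaks (107 ± 26.1 and 149 ± 44.0 CPM, 0.48 ± 0.16, adjusted p = 0.0161) and passed it without clone 21 (0.67, adjusted p = 0.00577), while the upstream Relb peak had 24.0 ± 10.9 and 17.1 ± 3.25 CPM (-0.16 ± 0.31). Rel had 74.7 ± 14.6 and 62.9 ± 13.7 CPM (-0.15 ± 0.16), Nfkb1 29.5 ± 8.56 and 43.1 ± 18.0 CPM (0.15 ± 0.24) and Tnfaip3 74.6 ± 13.0 and 66.5 ± 17.6 CPM (0.032 ± 0.16). Nfkbie had 111 ± 14.7 and 99.8 ± 38.2 CPM (0.056 ± 0.14), and Nfkbiz 16.7 ± 9.48 and 17.2 ± 6.34 CPM (-0.23 ± 0.38). The strongest Nfkbiz peak, at the inner start, had 47.2 ± 15.0 and 48.4 ± 4.32 CPM (0.14 ± 0.20, adjusted p = 0.688). In all, 22 of the 222 member peaks passed the filter.

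Other pathway genes showed 2 calls of 44 measured, both higher in GM-CSF control lines, while 747 of all 12956 loci were called higher (5.77%), so the list's share was no larger than that background. The median was 0.14 against -0.0055 over all loci. They were Ikbke, an IkB kinase relative (29.8 ± 11.0 and 67.2 ± 14.8 CPM, 1.16 ± 0.20, adjusted p = 2.92e-06), and Tnip2, which binds the Nfkb1 precursor (65.5 ± 14.6 and 90.5 ± 17.0 CPM, 0.53 ± 0.15, adjusted p = 0.00881). Of 24 target genes measured, 3 were higher, Nlrp3 (0.63 ± 0.19), Tnf (0.49 ± 0.15) and Lta (0.47 ± 0.16), and 1 lower, Ccl3 (-0.69 ± 0.19), 4 calls in all beside the 12.4% of all loci, with a median of 0.058. Tnf and Lta are neighbours and all 13 peaks of each locus are shared with other loci, so they are not separate readings. All 10 Ccl3 peaks, 4 of the 7 Tnip2 peaks and 1 of the 13 Nlrp3 peaks also belong to loci of neighbours. Between KO lines Ikbke (1.40 ± 0.26) and Tnf (0.63 ± 0.19) were called, 1 of 42 pathway and 1 of 21 target genes.

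Between GM-CSF and SCF lines that were both Tet2 KO, 1121 of 11398 loci differed (9.84%) and 0 of 9 members. No member reached an unadjusted p under 0.05 there, and DESeq2 called 0 of them as well. Bcl3 came nearest (141 ± 27.6 and 108 ± 31.8 CPM, -0.31 ± 0.16, p = 0.0578, adjusted p = 0.241), and Relb, with 173 ± 25.9 and 165 ± 40.9 CPM, had 0.18 ± 0.13 (adjusted p = 0.432). The GM-CSF KO lines were the shallowest group, and 10 kb loci were at 0 in 1 line for Nfkb1 and Nfkb2 and in 2 lines for Nfkbiz.

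Within the 4 GM-CSF clones the KO effect was not resolved at any locus of the series. Of 12756 loci, 0 were called (0%), by edgeR and by DESeq2, with 688 at an unadjusted p under 0.05. Relb had 250, 196, 132 and 167 CPM in the control lines of clones 19 to 22 and 146, 117, 198 and 200 CPM in their KO lines. The KO line was the lower in the shallow clones 19 and 20, where it held 6 and 5 counts, and the higher in clones 21 and 22. The fit, which weights by counts, gave 0.25 ± 0.17 (adjusted p = 0.957). Nfkb2 had 111, 110, 93.5 and 133 CPM in control and 0, 46.7, 95.9 and 90.4 CPM in KO lines (-0.40 ± 0.21, p = 0.0539, adjusted p = 0.911).

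The difference of the KO effect between GM-CSF and SCF clones was likewise not resolved, with 0 of 12756 loci called (0%), 0 also with DESeq2, and 540 at an unadjusted p under 0.05. At Relb it was -0.077 ± 0.18, with a 95% interval from -0.43 to 0.28 that holds both no difference and the loss of the whole SCF effect. At Nfkb2 it was -0.52 ± 0.22 (p = 0.0199, adjusted p = 0.999), the 1 member at an unadjusted p under 0.05. The other members had values from -0.38 (Nfkbie) to 0.10 (Rel).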

How the data were processed

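The deposited values are unnormalised counts of each library in each peak, which the authors made by aligning to mm10 with Bowtie2, SAMtools and Picard (no versions stated). Peaks were of 1 length, 301 bp, around MACS2 summits of single-cell data plus ImmGen peaks. The sources used here do not say if a count is a fragment or a cut, or how duplicates were treated.

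Samples were grouped by cytokine and genotype from the labels. Titles of clones 20 to 22 name SCF, but their treatment field names GM-CSF, which was used. Counts were summed per gene over peaks centred within 10 kb (locus), 1 kb (promoter sum) and from 1 to 25 kb (distal sum, which holds neighbours' promoters) of the TSS of 21938 protein-coding genes (GENCODE, GRCm38). CPM used TMM-scaled totals (factors 0.821 to 1.09). Totals differed widely, so precision differs between libraries, and all intervals and SDs rest on few counts in the shallow ones.

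Sums and peaks were tested over all features with edgeR 4.0.16 (R 4.3.3), quasi-likelihood F-tests, after filterByExpr at a minimum count of 10. Benjamini-Hochberg adjusted p under 0.05 was called, and at or under 0.01 for peaks. KO contrasts had the clone as block, since the labels pair the lines of a clone. A joint fit of the 56 libraries gave the KO effect within GM-CSF and how far it departed from that within SCF. SE was the log2 difference divided by the root of F. GM-CSF against SCF control lines and the SCF KO effect share the SCF control lines. In KO contrasts p-values measure how the differences within pairs vary over clones. Between the cytokines they measure the spread between clones. All clones are of 1 mouse line. The fits were tested on simulated counts, drawn with 1 common spread for all loci and without differences between clones. At a true log2 difference of 0.5, 93.9% of changed loci were called for the SCF KO effect and 22% between the cytokines. A missing call between the cytokines therefore says little at that size. Real loci differ in spread and between clones, so these shares may not hold for the members. Alternatives were DESeq2 1.42.0, other scalings, filters, windows and TSS definitions, a promoter-share covariate, no replicate block, leaving out each GM-CSF clone, and subsets of clones. For promoter sums, distal sums and peaks, the clone subsets, the omission of shallow clones and the use of KO lines were chosen after seeing the data, as was summing clones 19 and 20. Motifs were searched with Python 3.11.15 and pysam 0.24.0.

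The members and gene lists were chosen with earlier results of these data known. All members are named at loci, as are called member peaks, promoter peaks and strong distal peaks, and up to 8 called genes of each list by absolute difference. Sequences are promoter peaks that hold a kB match or belong to a called gene and called distal peaks with a match, up to 8 in all.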

Additional observations from a re-analysis of the deposited data

Results flagged for a closer look

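In the GM-CSF KO lines, the Rel locus of clone 19 had 48.6 CPM, while the other 3 clones had 70.0, 73.7 and 74.1 CPM. It was flagged because its gap to the nearest clone made up 0.839 of the range of the 4 values. The value rests on 2 counts. Of 40 groups of 4 examined this was 1, and chance flags about 1 in 20.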

How the results depend on the processing

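The Relb KO effect at its locus lay between 0.21 and 0.37 in 13 alternatives and was called in all but clones 23 to 29 alone (0.21). Without the replicate block that pairs the lines of a clone it was 0.32 (edgeR, adjusted p = 6.19e-04). Loci called between GM-CSF and SCF control lines fell to 1059 without clone 21 and to 630 without clone 22, the deeper GM-CSF clones, and clones 19 and 20 hold few counts. Where a value below changed, the cause was not tested, and every member named as turning sign had missed the threshold in the reported fit.

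Counts of called features moved by over 1.5 times as follows. For the KO effect in SCF clones, 643 loci became 351 with DESeq2, 426 with a 1 kb window, 296 with promoter share as covariate, 291 in clones 1 to 18 and 14 in clones 23 to 29. Promoter sums went from 426 to 255 with DESeq2, 259 in clones 1 to 18 and 0 in clones 23 to 29. Distal sums went from 281 to 160 with DESeq2, 149 without the replicate block, 82 in clones 1 to 18 and 2 in clones 23 to 29. Peaks went from 197 to 127 with DESeq2, 60 without the block, 59 in clones 1 to 18 and 0 in clones 23 to 29. Loci differing between clones went from 179 to 307 without a count filter, 83 in clones 1 to 18 and 42 in clones 23 to 29.

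Between GM-CSF and SCF control lines, 1612 loci became 901 with a 1 kb window and 630 to 1557 leaving out 1 GM-CSF clone. Promoter sums went from 901 to 514 with DESeq2 and 315 to 823 leaving out a clone. Distal sums went from 1749 to 1157 against clones 23 to 29 and 661 to 1609 leaving out a clone. Peaks went from 1933 to 3643 at a minimum count of 5, 1248 against clones 1 to 18, 1231 against clones 23 to 29, 986 in KO lines and 835 to 2088 leaving out a clone. Between KO lines, 1121 loci became 617 with DESeq2, 626 with a 1 kb window and 372 to 1163 leaving out a clone. For the KO effect in GM-CSF clones, 0 loci became 1 with RLE scaling, upper-quartile scaling, a 1 kb or a 25 kb window, 3 with promoter share as covariate and 0 to 0 leaving out a clone.

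Members turned sign as follows in log2 difference. For the SCF KO effect, upper-quartile scaling gave Bcl3 -0.0055, Tnfaip3 -0.0086, Rel -0.0031 and Nfkbie -0.029. No replicate block gave Tnfaip3 -0.0060 and Nfkbie -0.0029. Clones 1 to 18 gave Tnfaip3 -0.0072, Rel -0.040, Nfkbie -0.014, Rela 0.030 and, for its distal sum, Relb 0.0098. A 1 kb window gave Nfkbie -0.095, promoter share as covariate Rela 0.029 and a 25 kb window Nfkb2 -0.020.

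Between GM-CSF and SCF control lines, Nfkb1 had -0.032 without shallow clones, Nfkbia -0.55 with a 1 kb window and Nfkbie -0.068 with a 25 kb window. Tnfaip3 had -0.0030 with a 25 kb window, -0.016 with the TSS of every transcript and -0.018 against clones 1 to 18. Leaving out a clone, Tnfaip3 ran from -0.11 to 0.069, Nfkbiz from -0.44 to 0.048 and Nfkbie from -0.042 to 0.14. The kB share of distal counts differed by -0.0520 percentage points without shallow clones and by -0.0304 to 0.119 leaving out a clone, the lowest without clone 20.

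Between KO lines, Nfkb1 had -0.0048 with the covariate, -0.0054 against clones 23 to 29 and -0.52 to 0.35 leaving out a clone. Tnfaip3 had 0.017 with a 1 kb window and 0.013 against clones 23 to 29, Rel 0.062 with the covariate and 0.013 against clones 1 to 18, Nfkbia 0.071 with a 25 kb window and Nfkb2 0.037 with a 1 kb window. Rela had -0.0077 with DESeq2, -4.5e-04 with RLE scaling, -0.020 with no filter, -0.29 with a 1 kb window, -0.0082 without shallow clones, -0.038 against clones 1 to 18 and -0.040 to 0.050 leaving out a clone, and Nfkbie -0.60 to 0.015.

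For the KO effect in GM-CSF clones, leaving out a clone gave Nfkb1 -0.55 to 0.38, Tnfaip3 -0.23 to 0.025, Rel -0.019 to 0.30, Nfkbiz -1.15 to 0.059 and Nfkbie -0.62 to 0.0022. Nfkbiz had 0.14 with a 25 kb window and 0.10 with the TSS of every transcript. For the difference of the KO effect, Nfkb1 had 0.038 with a 1 kb window, 0.035 with a 25 kb window, 0.12 without shallow clones and -0.80 to 0.13 leaving out a clone. Relb had 0.031 without shallow clones and -0.30 to 0.0019 leaving out a clone, and Rel -0.029 with a 1 kb window and -0.067 to 0.26. Nfkbiz had 0.15 with a 25 kb window, 0.066 with the TSS of every transcript, 0.10 without shallow clones and -0.97 to 0.24 leaving out a clone.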

Other observations

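Some member windows reach the start sites of neighbours, and 2 such peaks had an unadjusted p under 0.05 without passing the limit of 0.01 for adjusted values. The peak 24019 bp downstream of Nfkb2, at the start of Fbxl15, had a KO difference of -0.35 ± 0.13 in SCF clones (edgeR, p = 0.00934, adjusted p = 0.103). The peak 23680 bp downstream of Rela, near the start of Sipa1, differed by -0.72 ± 0.31 between GM-CSF and SCF control lines (edgeR, adjusted p = 0.0793).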
